A study of Mus musculus with 6 samples.

Results

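The data described here are 3 regions of mouse cholangiocarcinoma, a cancer of the bile ducts, out of 6 regions in the deposited table. They are areas 11, 12 and 13, here called regions 1, 2 and 3, and were chosen by their column numbers, whose genotype line marks both alleles of Cd274 as floxed in mice with Cre. Per the labels the genotype is Cd274F_FCol1A1Cre: both Cd274 alleles carry the sites that Cre recombines, and the Cre is driven from Col1a1, so that recombination is limited to cells that use that promoter. PD-L1, the checkpoint ligand that dampens T cell responses, is the product of Cd274. The tumours were of the SB murine CCA cell line, and the collected cells were Desmin-positive and CD45-negative, a mask meant for cancer-associated fibroblasts (CAFs) and activated hepatic stellate cells. All 3 regions lay on a shared slide, the labels name no animal for any of them, and the sources used here do not say how their places were picked. They may therefore share an animal, and the spread between them is a spread between places of tissue that carry the same genotype label. The 3 regions hold no labelled contrast, so no test was made and no genotype was compared.

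In the GeoMx assay, probes that bind gene transcripts carry a sequence tag, and light releases the tags from a chosen area of a section for sequencing. Hepatic stellate cells are the fat-storing pericytes of the liver, and on activation they become contractile cells that deposit collagen. Tumour fibroblasts are known to take several states, among them a contractile state that makes matrix and an inflammatory state that secretes chemokines, and single tumours can hold both. A mask drawn on a section also collects RNA of cells that lie against or above the stained cells, such as hepatocytes, vessels, tumour epithelium and leukocytes.

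The table gave 13264 targets and 1 row named as the negative probe, a control meant to bind no mouse transcript. The summed signal was 378554, 223253 and 393615 in regions 1, 2 and 3, a spread of 1.76-fold, and the upper quartile of the targets (their 75th percentile) was 28.02, 16.9 and 27.3. Every value below is the signal divided by that upper quartile of its own region, so that 1 is the level of the upper quartile, and is called the scaled level. Within a region, at least 99.96% of target values were whole multiples (within 0.01) of a common unit, here called a step. The negative probe row stood at 2.58, 3.20 and 4.81 steps, which are not whole, so it need not be the count of a single probe. Should 1 step stand for 1 tag, the median target had 11, 11 and 19 tags, and counting alone gives an error of 30.2%, 30.2% and 22.9% of that value. The exact Poisson 95% interval of the median target was 5.49 to 19.7 steps in regions 1 and 2 and 11.4 to 29.7 steps in region 3. These intervals cover counting error only, and tags amplified by PCR need not be independent molecules. No target stood at 0, and 223, 51 and 5 targets stood at exactly 1 step, so a measured tag and a floor cannot be told apart there.

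The negative probe stood at 0.129, 0.188 and 0.146 of the upper quartile. The median target was 4.27, 3.43 and 3.95 times the negative probe in regions 1, 2 and 3. In region 1, 574 targets (4.33%) were at or below the negative probe, against 442 (3.33%) in region 2 and 128 (0.965%) in region 3. Region 2 had the smallest distance between typical targets and background, and region 1 had the most targets at background. On average over the regions, 4872 of the 13264 targets reached 5 times the negative probe, and these are called the well-measured targets. A target can pass this filter through its highest region alone, so a well-measured target can lie near background in another region.

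**Figure D1:**
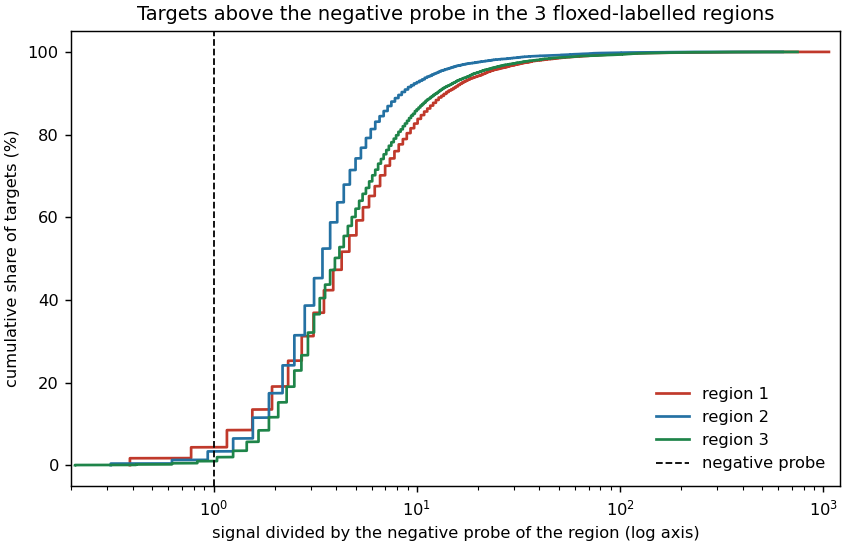
Cumulative share of the 13264 targets (%) against signal divided by the negative probe of the same region (log axis), 1 line per region, with the negative probe as a dashed line. The line of region 2 lies to the left over most of the range, with a median of 3.43 against 4.27 in region 1 and 3.95 in region 3.

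The spread of ordinary targets was close to counting error, and that of abundant targets was not. The standard deviation (SD) of the log2 scaled level over the 3 regions had a median of 0.63 for 3761 targets with a mean under 10 steps, where counting alone gives 0.57. For 5371 targets with 10 to 20 steps both were nearly the same, 0.43 against 0.42. For 68 targets with at least 320 steps the median SD was 0.44 and the counting value 0.08, a ratio of 5.64. In both classes under 20 steps a modest difference between regions was therefore not detectable at this depth.

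**Figure D2:**
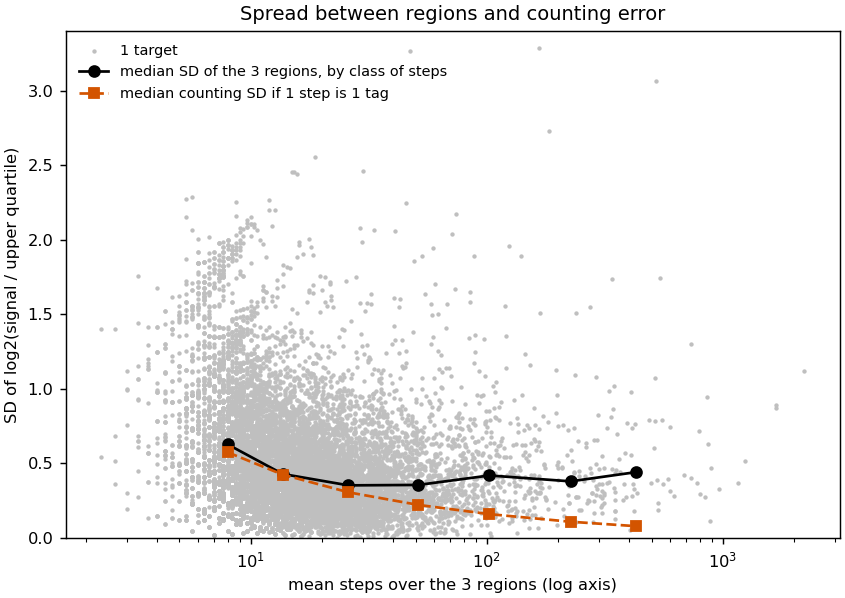
SD over the 3 regions of log2(signal / upper quartile) against the mean number of steps (log axis), 1 grey point per target, with the median SD of each class of steps in black and the median counting SD in orange. The lines meet at 10 to 20 steps (0.43 and 0.42) and part at 320 steps or more (0.44 and 0.08).

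Across targets the regions resembled each other unequally. Pearson's r of the log2 scaled levels was 0.661 for regions 1 and 2, 0.783 for regions 1 and 3 and 0.786 for regions 2 and 3 (n = 13264 targets, which are not independent replicates and share the libraries' depth). Among the 4872 well-measured targets these were 0.645, 0.763 and 0.851. Between regions 1 and 2, 29.4% of targets were at least 2-fold apart, between regions 1 and 3 20.6%, and between regions 2 and 3 15.4%. Region 1 was thus the least like the others by these measures, though over all targets r for regions 1 and 3 was close to that for regions 2 and 3. Among the 264 targets with a mean of at least 5 times the upper quartile r was 0.374, 0.604 and 0.817 in the same order. There the 2-fold shares were 26.9%, 14.0% and 16.3%, so by that share region 2 was the least like the others.

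The range of a target, its highest over its lowest scaled level, had a median of 1.81-fold (0.86 on the log2 scale). It was 1.62-fold among the well-measured targets and 1.71-fold among the 264 targets with a mean of at least 5 times the upper quartile. In all, 1085 targets (8.18%) ranged at least 4-fold, but for only 504 of these (46.5%) did the counting intervals of the highest and lowest region lie apart. Among the well-measured targets 154 (3.16%) ranged at least 4-fold. Counting intervals lay apart for 1548 targets (11.7%) in all. Without region 1, 179 targets ranged at least 4-fold between the remaining 2 regions, against 502 without region 2 and 864 without region 3.

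The regions also differed in the direction of their extremes. At least 2-fold above both other regions stood 346 targets (2.61%) in region 1, 708 (5.34%) in region 2 and 166 (1.25%) in region 3. Among well-measured targets these numbers were 200 (4.11%), 26 (0.534%) and 35 (0.718%), so most of the excess of region 2 lay in targets that did not pass this filter. Counting intervals of the highest and lowest region lay apart for 214 of the 346, 192 of the 708 and 54 of the 166. At least 2-fold below both others stood 1435 targets (10.8%) in region 1, 454 (3.42%) in region 2 and 236 (1.78%) in region 3, and 207 (4.25%), 191 (3.92%) and 19 (0.39%) among the well-measured ones. Regions 1, 2 and 3 were the highest of the 3 for 28.2%, 40.7% and 31.2% of targets, and for 38.2%, 25% and 36.8% of the well-measured ones. They were the lowest for 44.7%, 30.7% and 24.5% of targets, and for 34.7%, 45.8% and 19.5% of the well-measured ones. The filter itself favours region 1 over region 2, since the upper quartile was 7.76, 5.31 and 6.87 times the negative probe in regions 1, 2 and 3, so these shares do not compare the regions evenly. The filter also takes the mean over regions, so a target can pass through the region where it is high. Ednrb, with an excess in region 1, passed at 15.9, 1.87 and 1.66 times the negative probe.

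Of 37 gene lists for cell types and programmes, 35 had at least 5 members in the table. The level of a list in a region is the median over its members of the log2 scaled level, less each member's mean over the regions. This level ranged over 2-fold for 4 lists: glycolysis and hypoxia genes, hepatocyte secreted proteins, proliferation genes, and T and NK cell genes. The median range of the 35 lists was 0.54 on the log2 scale. Region 3 was the highest for 21 lists and region 2 the lowest for 20. In bulk areas such as these, fewer cells of a type and less RNA per cell cannot be told apart.

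**Figure D3:**
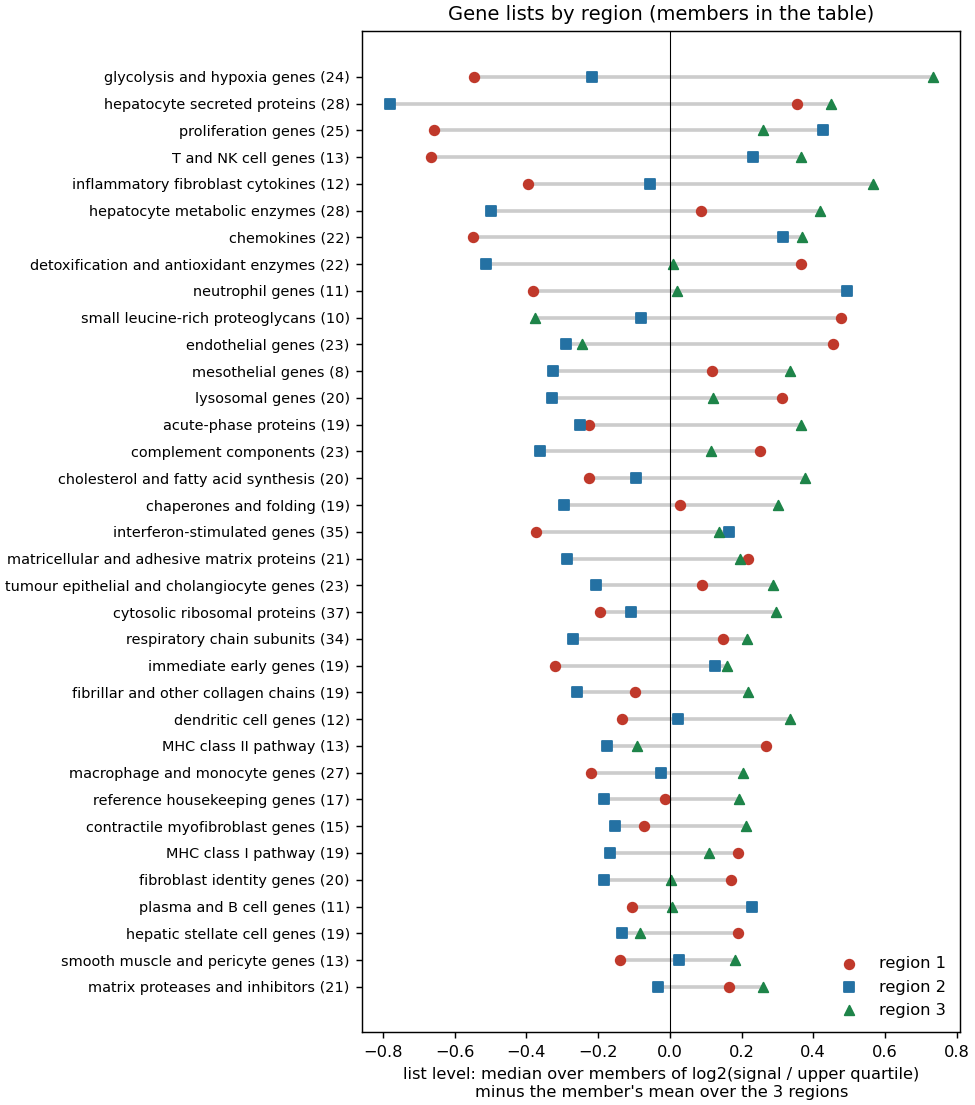
Level of each of the 35 lists in regions 1 (circles), 2 (squares) and 3 (triangles), on the log2 scale, with lists ordered by range and the number of members in brackets. With this scaling glycolysis and hypoxia genes spread by 1.28 and matrix proteases and inhibitors by 0.29, and the first rank changes with the scaling.

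Glycolysis and hypoxia genes were highest in region 3 and had the widest range of the 35 lists. That rank passed to hepatocyte secreted proteins with negative-probe, median and no scaling and with a pseudocount of 0.5, to small leucine-rich proteoglycans with quantile normalization, to T and NK cell genes with the negative probe subtracted, to inflammatory fibroblast cytokines among well-measured targets, and to other lists without region 1 or region 3. Without region 3 the range of the list was 0.36. This list holds the enzymes that turn glucose into lactate and targets of the hypoxia-inducible factors, which bind DNA and switch on genes when oxygen is short. Its level was -0.55, -0.22 and 0.73 in regions 1, 2 and 3, a range of 2.43-fold. Of its 24 members 22 were highest in region 3, where 31.2% of all targets and 36.8% of the well-measured ones were highest. In region 3, 9 members stood at least 2-fold above both other regions (1.25% of all targets). Counting intervals lay apart for 19 of the 24 (11.7% of all targets). Region 3 stayed the highest for this list under 5 other scalings (by column total, by column median, by the negative probe, by quantile normalization and with none), with ranges of 1.11 to 1.65, while the lowest place passed from region 1 to region 2 with negative-probe scaling and without scaling.

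Pkm, the pyruvate kinase that is common in proliferating tissue, had scaled levels of 5.40, 11.8 and 22.1 in regions 1, 2 and 3, a 4.09-fold range. Gapdh, a central glycolytic enzyme often taken as a reference gene, had 11.0, 13.8 and 23.3. Eno1, an enolase of the same pathway, had 5.25, 6.35 and 13.6. All of these stepped apart in region 3, whereas regions 1 and 2 lay close for Gapdh and Eno1. Ldha, which makes lactate from pyruvate, had 2.30, 3.12 and 6.03. Pgam1, a phosphoglycerate mutase, had 4.75, 4.53 and 10.0. Pgk1, a phosphoglycerate kinase, had 1.60, 2.53 and 4.70. Hk2, the hexokinase that traps glucose in cells, departed from this order, with 0.30, 1.53 and 1.27, and was lowest in region 1 with little between the others.

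Low members of the same list pointed to the same region. Slc2a1, the glucose transporter GLUT1, had scaled levels of 0.45, 0.59 and 1.33. Car9, a carbonic anhydrase of the cell surface known as a hypoxia marker, had 0.65, 0.71 and 1.55. Bnip3, a mitochondrial protein of hypoxia-driven mitophagy, had 0.30, 0.59 and 1.33. The promoters of the 4 members with the largest excess in region 3 are shown because the core of the hypoxia response element, ACGTG or GCGTG, is what such genes are known to share. They are from RefSeq with coordinates of GRCm38.p6, run from 250 bases before to 50 bases after the start of the gene, and read 5′ to 3′ on the strand of the gene. Capitals mark this core on either strand. Where both strands match at overlapping letters, the stretch counts as 2 matches.
Tpi1 (chr6:124814109-124814408, minus strand): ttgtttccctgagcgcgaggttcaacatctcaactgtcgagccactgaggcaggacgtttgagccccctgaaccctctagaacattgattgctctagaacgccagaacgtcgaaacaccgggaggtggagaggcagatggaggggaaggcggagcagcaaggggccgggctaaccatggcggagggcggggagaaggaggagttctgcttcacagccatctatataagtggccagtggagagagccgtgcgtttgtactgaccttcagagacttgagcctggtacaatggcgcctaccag
Slc2a1 (chr4:119108495-119108794, plus strand): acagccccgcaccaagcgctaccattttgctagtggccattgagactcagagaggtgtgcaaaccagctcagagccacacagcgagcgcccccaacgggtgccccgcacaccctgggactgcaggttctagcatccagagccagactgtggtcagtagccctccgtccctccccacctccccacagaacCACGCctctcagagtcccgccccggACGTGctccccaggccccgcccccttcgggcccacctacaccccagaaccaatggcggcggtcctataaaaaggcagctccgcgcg
Bnip3 (chr7:138909457-138909756, minus strand): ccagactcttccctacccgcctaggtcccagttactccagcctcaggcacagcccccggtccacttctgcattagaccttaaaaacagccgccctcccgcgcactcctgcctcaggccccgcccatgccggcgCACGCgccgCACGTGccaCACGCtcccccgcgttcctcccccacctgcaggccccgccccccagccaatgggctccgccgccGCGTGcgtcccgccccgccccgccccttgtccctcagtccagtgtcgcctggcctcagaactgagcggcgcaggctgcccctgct
Car9 (chr4:43506776-43507075, plus strand): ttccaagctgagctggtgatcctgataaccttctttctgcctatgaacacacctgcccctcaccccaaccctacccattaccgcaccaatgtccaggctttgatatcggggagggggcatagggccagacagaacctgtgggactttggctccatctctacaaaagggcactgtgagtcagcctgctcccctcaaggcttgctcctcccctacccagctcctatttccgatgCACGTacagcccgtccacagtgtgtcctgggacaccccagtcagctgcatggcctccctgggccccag
Tpi1, triose phosphate isomerase of glycolysis, had 0 matches in this window and scaled levels of 2.25, 1.94 and 5.39, so a high level in region 3 went with no match as well. Slc2a1 had 2 matches, Bnip3 5 and Car9 1. A match was present in 8 of the 9 members that stood 2-fold above in region 3 (88.9%), in 17 of the 23 list members with a promoter in the table (73.9%) and in 11836 of 27025 promoters of all genes (43.8%). For ACGTG alone, on either strand, the numbers were 6 of 9 (66.7%), 13 of 23 (56.5%) and 19.7% of all promoters. These are matches of letters and not sites shown to be bound. The list holds known targets of the hypoxia-inducible factors, so a larger share of matches than in all promoters was built in. The 9 members were picked by their region 3 values, so these shares do not test hypoxia in region 3.

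Further genes with a large excess in region 3 had varied roles. Ccn2, the connective tissue growth factor, had scaled levels of 2.0, 2.29 and 7.24. Hbegf, a ligand of the epidermal growth factor receptor, had 0.45, 0.65 and 1.61. Regions 1 and 2 were near each other for Ccn2 and Hbegf. Saa1, a serum amyloid that the liver secretes in inflammation, had 7.25, 10.8 and 27.2. Saa2, its close relative, had 3.65, 6.0 and 16.1. Of the 19 members of the acute-phase list 11 were highest in region 3, 5 in region 1 and 3 in region 2. Region 3 was the highest for 31.2% of all targets, and 3 members stood at least 2-fold above both others there (1.25% of all targets). Mup13, a major urinary protein made by hepatocytes, had 44.4, 34.3 and 108, and was the sole member of its family in the table. Probes for Saa, Mup, antibody, haemoglobin, MHC and guanylate-binding protein genes may bind near-identical relatives, so single names in these families are uncertain. Fam162a, a hypoxia-responsive mitochondrial protein, had 0.85, 0.65 and 2.39. Region 3 was the highest for each of these 6 genes under 5 other scalings.

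Hepatocyte genes, which fibroblasts are not known to make in quantity, were abundant in every region and lowest in region 2. The secreted hepatocyte proteins had list levels of 0.35, -0.78 and 0.45. Of 28 members 26 were lowest in region 2, against 30.7% of all targets and 55.9% of those with 160 to 320 steps. That class holds the list's median of 180 steps and can include members of the list, so its shares are not independent of the list. In region 2, 21 members stood at least 2-fold below both other regions (3.42% of all targets and 3.92% of the well-measured ones). Counting intervals lay apart for 25 of the 28, near the 90.1% of targets in that class. The summed scaled level of the list was 427, 164 and 436, and without region 2 the range of the list was 0.10. Region 2 stayed the lowest under 5 other scalings, while the highest place passed from region 3 to region 1 under quantile normalization and negative-probe scaling.

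Alb, serum albumin, had scaled levels of 137, 31.6 and 102, a 4.34-fold range and about 168 times the negative probe even in region 2. Apoa1, the main protein of high-density lipoprotein, had 42.2, 14.1 and 45.3. Plg, plasminogen, had 5.40, 1.29 and 4.48. Regions 1 and 3 thus lay near each other and region 2 well below for all 3 genes. The metabolic enzymes of hepatocytes had list levels of 0.09, -0.50 and 0.42. Of their 28 members 21 were lowest in region 2, against 30.7% of all targets and 45.8% of the well-measured ones. Cyp2e1, a cytochrome P450 of the hepatocytes around the central vein, had 13.2, 2.53 and 3.94. It kept the order of Alb and Plg, with region 3 much nearer to region 2 than for those genes.

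Detoxification and antioxidant enzymes were highest in region 1 and lowest in region 2, at 0.37, -0.51 and 0.01. In region 1, 6 of 22 members stood at least 2-fold above both others (2.61% of all targets). Gstm1, a glutathione transferase, had scaled levels of 12.1, 2.24 and 2.55. Gstt1, of another class of the same enzymes, had 4.70, 0.65 and 0.73. Sult1a1, a sulfotransferase of small phenols that was placed on no list, had 10.4, 0.94 and 1.24, an 11.0-fold range and the largest excess of region 1 among well-measured targets. Regions 2 and 3 lay close for all of these, and region 1 alone was high. Gpx1, Sod1 and Cat, which remove peroxide and superoxide, were less uneven, and Cat had 4.70, 1.82 and 4.30, with region 2 low and the others near each other.

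Antibody transcripts were concentrated in region 1. Igha, the constant chain of IgA, had scaled levels of 62.1, 10.8 and 6.09 (1241, 183 and 201 steps), a 10.2-fold range with all counting intervals apart. Igkc, the kappa light chain, had 38.5, 7.59 and 3.67. Jchain, which joins IgA units, had 9.35, 2.0 and 1.0. All 3 followed the order of region 1, then 2, then 3, and region 1 stood over 4-fold above region 2. The rest of the plasma and B cell list did not follow: of 11 members these 3 were highest in region 1, 7 in region 2 and 1 in region 3. Region 2 was the highest for 40.7% of all targets and for 44.9% of those with 10 to 20 steps, where the list's median of 14.7 steps lies. Xbp1, a transcription factor of secretory cells, had 2.75, 3.18 and 2.97, and Ighm, the IgM heavy chain, 0.70, 1.06 and 0.24. The B cell marker Cd79b had at most 0.42 in any region, and 4 of the 11 members were well measured (4872 of all 13264 targets).

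**Figure D4:**
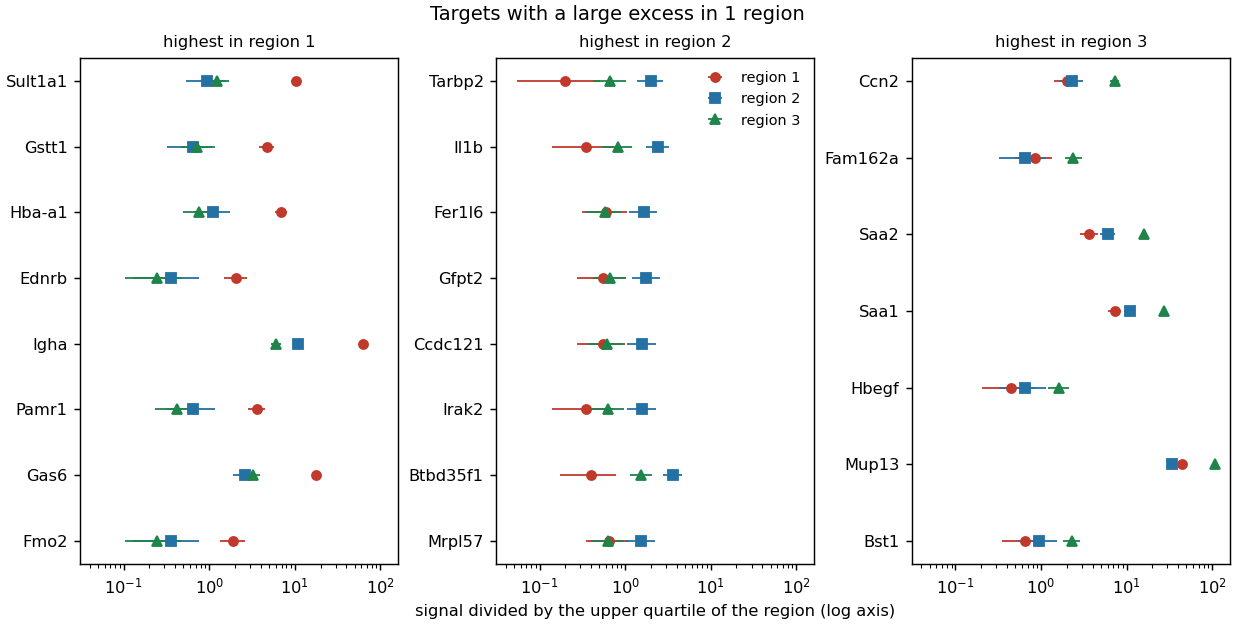
Scaled levels (log axis) of well-measured targets with a large excess in 1 region, 8 for region 1, 8 for region 2 and 7 for region 3, with exact Poisson 95% counting intervals as bars. Igha, Gas6 and Mup13 lie above 10 in their highest region while the targets of region 2 stay under 4.

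Some mesenchymal and vessel genes were also highest in region 1, but the fibroblast identity and stellate lists were split. Of 20 fibroblast identity genes, 9 were highest in region 1, 6 in region 2 and 5 in region 3. Of 19 stellate genes, 10 were highest in region 1, 5 in region 2 and 4 in region 3. Region 1 was the highest for 28.2% of all targets and 38.2% of the well-measured ones. In each of these lists 6 members were lowest in region 1, against 44.7% of all targets and 34.7% of the well-measured ones. The 8 genes given here were taken from those highest in region 1. Gas6, a ligand of TAM receptors that stellate cells secrete, had scaled levels of 17.6, 2.59 and 3.24 (352, 44 and 107 steps), a 6.80-fold range. Spp1, osteopontin, had 63.0, 10.4 and 22.9, all counting intervals apart. Igfbp5, a matrix-bound binding protein of insulin-like growth factors, had 12.7, 0.94 and 4.55, a 13.5-fold range. Spp1 and Igfbp5 shared the order of region 1, then 3, then 2, whereas regions 2 and 3 overlapped in counting error for Gas6. Prelp, a small proteoglycan of the matrix, had 6.75, 1.12 and 1.42. Cxcl12, the chemokine of stromal cells that binds CXCR4, had 3.25, 0.76 and 0.94. Pdgfra, a growth factor receptor of fibroblasts, had 2.30, 0.71 and 0.70. Thy1, a surface protein of fibroblasts, had 6.35, 2.12 and 1.36. Dcn, the proteoglycan decorin, had 11.2, 6.06 and 4.67. Region 1 kept the highest place for these 8 genes under 5 other scalings.

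Endothelial genes had list levels of 0.46, -0.29 and -0.24, with 17 of 23 members highest in region 1 (28.2% of all targets). In region 1, 7 members stood at least 2-fold above both others (2.61% of all targets). Eng, endoglin of vessel walls, had scaled levels of 4.90, 1.41 and 2.0. Kdr, the main receptor for vascular endothelial growth factor, had 1.60, 0.41 and 0.45. Pecam1, a junction protein that marks endothelium, had 1.05, 0.88 and 0.55. Of the 23 members 12 were well measured (4872 of all 13264 targets). The summed scaled level of the list was 29.2, 16.8 and 16.9. The haemoglobin transcript Hba-a1 had 6.90, 1.12 and 0.76, and Hbb-b1 4.75, 1.12 and 0.27, both high in the same region. The other 2 members of the red cell list in the table, which other cells also make, were not: Tfrc, the transferrin receptor, had 0.40, 0.47 and 1.27, and Car2, a carbonic anhydrase, 0.40, 0.53 and 0.45. The part of haemoglobin in the vessel and antibody values was not tested.

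Region 1 had the lowest level of the chemokine and proliferation lists. Ccl2, which draws monocytes and is secreted by inflammatory fibroblasts, had scaled levels of 0.20, 11.6 and 9.09 (4, 197 and 300 steps). It was at 1.55 times the negative probe in region 1 and over 60 times in the others, a wider range than any well-measured target but Krt14. Krt14, a keratin of basal epithelium, had 0.05, 1.76 and 3.36, but in region 1 this was a single step below the negative probe, with a counting interval from 0.00127 to 0.279. Cxcl10, an interferon-induced chemokine, had 0.60, 5.24 and 3.64. Timp1, an inhibitor of matrix proteases, had 0.30, 2.35 and 1.55. Isg15, a ubiquitin-like protein induced by interferon, had 0.95, 4.59 and 5.15. Region 1 was far below both others for each of these, and for Krt14 the counting intervals of regions 2 and 3 lay apart as well. Region 1 stayed the lowest for Ccl2, Krt14, Cxcl10, Timp1 and Isg15 under 5 other scalings.

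The chemokine list had levels of -0.55, 0.31 and 0.37, with 15 of 22 members lowest in region 1 (44.7% of all targets) and 7 at least 2-fold below both others (10.8% of all targets). Its highest region was 2 instead of 3 after scaling by the column total. Cxcl12 and Cx3cl1 went the other way and were highest in region 1. Without region 1 the range of the list was 0.04, so region 1 carried it. Interferon-stimulated genes had -0.37, 0.16 and 0.14, with 21 of 35 members lowest in region 1 (44.7% of all targets). For this list region 2 was lowest with negative-probe scaling and without scaling. Gbp6 and Irf1, also induced by interferon, were nearly level at 5.65, 6.0 and 5.15 and at 5.25, 4.82 and 4.24.

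Proliferation genes had list levels of -0.66, 0.43 and 0.26, with 23 of 25 members lowest in region 1 (44.7% of all targets) and 9 at least 2-fold below both others (10.8% of all targets). Region 1 was the lowest under 5 other scalings, but the highest place passed from region 2 to region 3 with negative-probe scaling, median scaling and no scaling. Pcna, the sliding clamp of DNA replication, had scaled levels of 1.05, 2.76 and 2.36. Rrm2, a subunit of the enzyme that makes DNA building blocks, had 0.60, 2.24 and 1.52. Mki67, a nuclear protein of dividing cells, had 0.70, 1.41 and 1.33. The members had a median of 5.53 times the negative probe and 20.3 steps, and counting intervals lay apart for 7 of the 25 (11.7% of all targets). The range was 0.23 without region 1.

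T and NK cell genes had list levels of -0.67, 0.23 and 0.37, with 10 of 13 members lowest in region 1, but none of the 13 was well measured, and 53.4% of all targets under 10 steps were lowest in region 1. Their median was 2.72 times the negative probe and 9.67 steps, and counting intervals lay apart for 1 of 13, Nkg7, a granule protein of cytotoxic cells, at 0.10, 0.71 and 0.82. Trac, the constant part of the T cell receptor alpha chain, had 0.40, 0.71 and 0.97 with overlapping intervals. The low place of region 1 in this list is therefore not separable from counting error gene by gene. Neutrophil genes were as near background, with a median of 2.11 times the negative probe and levels of -0.38, 0.49 and 0.02. Their highest region passed from 2 to 3 without scaling. Their leading member Il1b, an inflammatory cytokine, had 0.35, 2.41 and 0.82 (7, 41 and 27 steps).

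**Figure D5:**
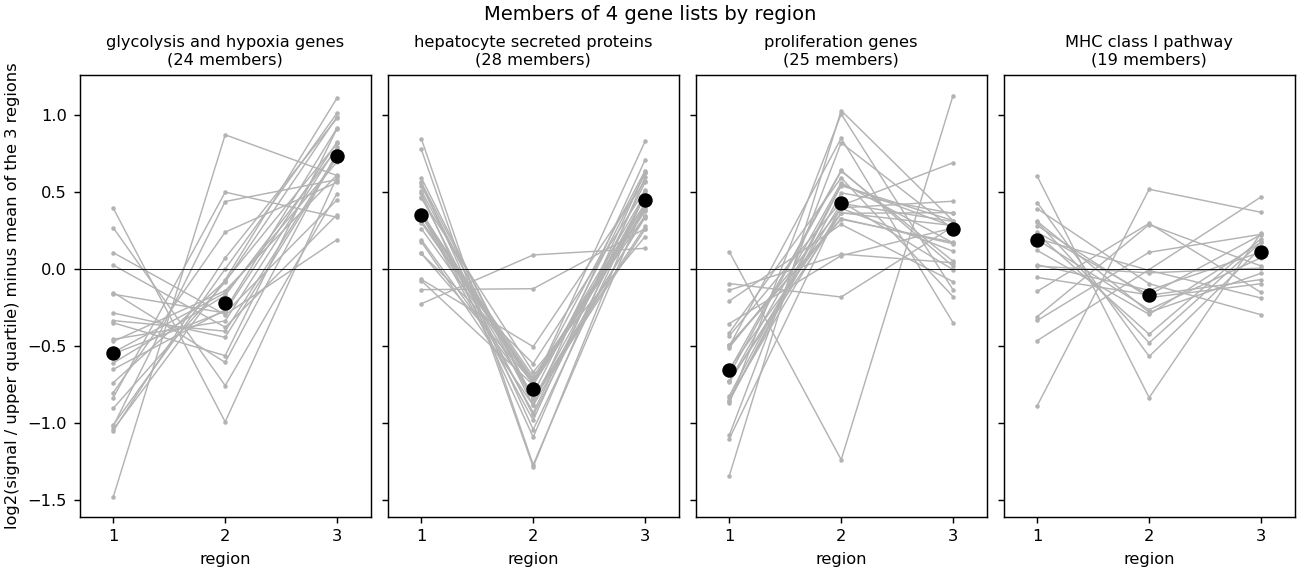
Log2 scaled level of each member less its mean over the regions (grey lines) in regions 1, 2 and 3 for 4 lists, with the list level as a black point. Glycolysis and hypoxia members climb to region 3 (0.73), secreted hepatocyte proteins dip in region 2 (-0.78), proliferation genes dip in region 1 (-0.66), and MHC class I members stay within 0.36 at the median.

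Few of the targets with an excess in region 2 were well measured. Of its 708 targets at least 2-fold above both others, 26 were well measured. Il1b and Tarbp2, a partner of Dicer in small RNA processing, led them. Tarbp2 had scaled levels of 0.20, 2.0 and 0.67 (4, 34 and 22 steps). Irak2, a kinase of interleukin-1 receptor signalling, had 0.35, 1.59 and 0.64. Mrpl57, a protein of the mitochondrial ribosome, had 0.65, 1.53 and 0.64. Their counting intervals lay apart between highest and lowest region, but each rested on 26 to 41 steps in region 2. These targets were picked by their excess in the same values, so intervals that lie apart are no separate support. Igfbp5 aside, the largest deficits of region 2 below both others rested on few steps as well. Sdf2l1, an endoplasmic reticulum protein of the folding response, had 1.2, 0.18 and 0.97, which is 3 steps and 0.937 times the negative probe in region 2.

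The levels of most lists of the fibroblast and matrix programme ranged less than that of the median list, but opposite members cancel in a level. Col1a1, the collagen chain whose promoter drives the Cre, had scaled levels of 40.8, 38.1 and 61.2 (816, 648 and 2019 steps), a 1.61-fold range. Col3a1, of another fibrillar collagen, had 48.6, 31.2 and 41.8. Acta2, smooth muscle actin of contractile cells, had 4.35, 2.65 and 6.18. These were far above background everywhere and had no common order of regions, and under quantile normalization both the highest and the lowest region of Col1a1 changed. Vim, the intermediate filament vimentin, had 9.45, 15.2 and 17.3. The levels ranged by 0.36 for fibroblast identity genes, 0.48 for collagen chains, 0.37 for contractile genes and 0.32 for stellate cell genes. Small leucine-rich proteoglycans (0.85) and inflammatory fibroblast cytokines (0.96), also fibroblast products, ranged more. Member by member several of these lists were uneven. The median range of single members was 1.47 on the log2 scale for stellate genes, against 0.86 for all targets and 0.69 for the well-measured ones. Of the 19 stellate genes 7 stood at least 2-fold above both others in region 1 (2.61% of all targets and 4.11% of the well-measured ones). The median member range was 0.98 for fibroblast identity genes, 0.82 for collagen chains and 0.65 for contractile genes. Matricellular and adhesive matrix proteins had 1.34, and 5 of 21 ranged at least 4-fold (8.18% of all targets and 3.16% of the well-measured ones).

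Collagens that differed from this were those of basement membranes and a few others. Col4a1 had scaled levels of 12.4, 3.94 and 8.36, and Col4a2, its partner chain in basement membranes, 9.10, 3.24 and 6.24. Col18a1, a basement membrane collagen that holds the endostatin fragment, had 5.50, 1.59 and 3.21. These 3 shared the order of region 1, then 3, then 2. Col15a1 went the opposite way, at 1.2, 5.12 and 4.70, and was the single collagen chain of 19 with a range over 4-fold. Among other matrix proteins, Eln, elastin, had 7.70, 3.41 and 3.97, while Thbs1, a thrombospondin, had 1.40, 4.06 and 6.0 and Ccn1, a matricellular relative of Ccn2, 0.90, 3.65 and 5.24.

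The genes that held steadiest among abundant targets were 15 with ranges of 1.04- to 1.19-fold, against a median of 1.71-fold for the 264 targets of that abundance. Morf4l1, a subunit of chromatin-modifying complexes, had scaled levels of 5.75, 5.65 and 5.88. Ptms, parathymosin, had 17.2, 18.2 and 16.9. Ddx17, an RNA helicase, had 6.30, 6.82 and 6.36. Rhoa, a small GTPase that controls the actin skeleton, had 6.85, 6.76 and 7.36. The differences among these values are within counting error. For 14 of the 15 the counting intervals overlapped, and for Ptma, prothymosin alpha, at 34.5, 37.7 and 40.2, they lay apart at 1.17-fold. The 15 were picked for their small ranges, so ranges under the median were built in and overlap was favoured. In all 1000 targets (7.54%) ranged less than 1.2-fold, 504 (10.3%) of the well-measured ones. Such steadiness is relative to the upper quartile, since without scaling 469 targets did so.

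At the median, antigen presentation genes held fairly steady member by member. The MHC class I list ranged by 0.36 and the class II list by 0.44, and 0 of 19 and 0 of 13 members ranged over 4-fold. At the share of 3.16% among well-measured targets hardly any would, so these counts of 0 are near the background. The median range of single members was 0.56 and 0.53 on the log2 scale, against 0.69 for the well-measured targets. Counting intervals lay apart for 8 of the 19 class I members (median 85.3 steps), against 65.1% of targets with 80 to 160 steps. For class II they lay apart for 7 of the 13 (median 54.3 steps), against 35.0% of targets with 40 to 80 steps. H2-K1, a classical class I heavy chain, had scaled levels of 37.1, 23.7 and 36.4. B2m, its light chain, had 67.1, 33.6 and 54.7. Psmb10, a subunit of the immunoproteasome that cuts peptides for display, was nearly level at 3.70, 3.59 and 3.67. Cd74, the invariant chain of class II, was the least even of the abundant members, at 52.5, 19.4 and 30.2. Region 1 was highest for both lists under 5 other scalings, and the lowest place of region 2 did not hold under quantile normalization for either, nor after scaling by the column total for class II. The 37 ribosomal protein genes had a median of 245 steps, so they are set beside the targets with 160 to 320 steps. Of the 37, 0 ranged over 4-fold, against 6.31% of that class and 3.16% of the well-measured targets, so this 0 is near the background. Their median range was 0.60, and 32 were highest in region 3, against 69.4% of that class and 31.2% of all targets. Counting intervals lay apart for 31 of the 37, near the 90.1% of that class. The class has 111 targets and includes ribosomal genes of this list, so its shares are not independent of the list. Of targets with 80 to 160 steps 47.6% were highest in region 3, and of those with at least 320 steps 52.9%.

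Cd274 and the genes of the staining proteins were low and did not separate the regions. Cd274 had scaled levels of 0.30, 0.47 and 0.79 (6, 8 and 26 steps), at 2.33, 2.50 and 5.41 times the negative probe, with overlapping counting intervals. The sources used here do not say which part of the transcript its probe covers, so these values do not check the recombination. Des, which encodes the Desmin used to draw the mask, had 0.60, 1.12 and 1.24. Ptprc, which encodes the CD45 used to exclude leukocytes, had 0.80, 1.59 and 1.48. Counting intervals overlapped for both, and Ptprc stood at 6.21, 8.43 and 10.2 times the negative probe, so its RNA was present in a mask drawn to leave it out. Macrophage genes were also present, with a summed scaled level of 82.1, 50.1 and 79.7 over 27 members, and epithelial genes with 72.5, 50.8 and 80.8 over 23. For fibroblast identity genes the same sum was 154, 125 and 164 over 20 members. The part of these other cells in the differences between regions was not tested.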

How the data were processed

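The authors deposited 1 table of signal values per target and region, and per the file headers its columns name slide, area and Desmin. The sources used here do not say how tags were counted, targets filtered or values scaled before deposit. Of its 6 columns of values, the 3 of areas 11, 12 and 13 were used and 0 lacked a sample. Each signal was divided by the 75th percentile of its region, with no pseudocount, and compared as log2 ratios. Steps are signal divided by the smallest common unit of a column. As steps were not shown to be tags in every column, no count model was used. Genes were named by a rule of ranks by range, excess, deficit and steadiness plus leading list members, which gave 146 genes. Other list members were named after their values were seen. Counting intervals of genes picked by rank rest on the values that picked them, so they are no separate support. A few results are not reported here. Members, lists and rules were chosen with earlier results of these data known. Of the target names 13203 are symbols and 13 synonyms in the RefSeq table of GRCm38.p6, and 48 matched neither. Alternatives were 5 other scalings, pseudocounts of 0.1 and 0.5, subtraction of the negative probe, filters at 2 and 5 times the negative probe, and each region left out. The scripts were tested on simulated data and ran in Python 3.11.15 with numpy 2.4.6, pandas 2.3.3, scipy 1.17.1 and matplotlib 3.10.9.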

Additional observations from a re-analysis of the deposited data

How the results depend on the processing

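No paired analysis was possible because the results come from no test and from regions of a single genotype label. The count of targets ranging at least 4-fold (1085) was 364 and 51 with pseudocounts of 0.1 and 0.5, 3194 with the negative probe subtracted and 154 among targets at least 5 times the negative probe. The count under 1.2-fold (1000) was 469 without scaling, 2783 with a pseudocount of 0.5, 661 after subtraction and 504 in well-measured targets. Targets 2-fold above in region 1 (346) were 735 with negative-probe scaling, 618 without scaling, 230 and 89 with the pseudocounts, 696 after subtraction and 200 in well-measured targets. For region 2 (708) these were 257, 102, 421 and 22, 1198 and 26, with 471 after median scaling. For region 3 (166) they were 565 without scaling, 68 and 9 with the pseudocounts, 531 after subtraction, 35 in well-measured targets, 109 after scaling by the total and 103 at 2 times the negative probe. Lists ranging over 2-fold (4) were 10 with negative-probe scaling, 25 without scaling, 2 and 1 with the pseudocounts and 10 after subtraction. With a region left out, ranges over the remaining 2 regions gave 179 to 864 targets at 4-fold, 3390 to 3972 under 1.2-fold, a median range of 0.45 to 0.61, 531 to 986 with counting intervals apart, 1 to 2 lists, and 807 to 1196, 1186 to 2704 and 858 to 1926 targets 2-fold above in regions 1, 2 and 3. Fewer regions widen or narrow these counts by construction, and the cause of the other shifts was not tested. The median target itself ranged by 0.67 on the log2 scale without scaling, 0.37 with negative-probe scaling and 0.21 with total scaling, against 0.18 here. Of 146 named genes 135, 119, 122, 126 and 129 had the same highest region with total, negative-probe, no, quantile and median scaling.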

Other observations

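Lysosomal and complement genes followed the order of region 1, then 3, then 2. Lysosomal genes had list levels of 0.31, -0.33 and 0.12 in regions 1, 2 and 3, with 17 of 20 members lowest in region 2, against 30.7% of all targets and 45.8% of those at least 5 times the negative probe. Ctsb, a cysteine protease of lysosomes, had scaled levels of 3.80, 1.18 and 2.79, and Psap, the precursor of the saposins, was nearly level at 23.5, 19.2 and 24.3. Complement components had 0.25, -0.36 and 0.11, with 15 of 23 members lowest there. C3, the central component, had 36.8, 13.3 and 25.03. Serping1, the inhibitor of C1, had 8.30, 1.76 and 5.06. C1qb, a chain of C1q made by macrophages, had 6.25, 2.24 and 4.15. Both lists kept region 1 highest and region 2 lowest under 5 other scalings.

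Chaperones had list levels of 0.03, -0.29 and 0.30, with 14 of 19 members highest in region 3, against 31.2% of all targets and 36.8% of those at least 5 times the negative probe. P4hb, which folds collagen and other secreted proteins, had scaled levels of 9.70, 7.82 and 13.9, and Hspe1, a mitochondrial co-chaperonin, went its own way at 2.05, 6.29 and 5.94. Against the same shares, 17 of 20 genes of cholesterol and fatty acid synthesis were highest in region 3, with Scd1, a fatty acid desaturase, at 3.75, 3.12 and 6.91.

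Targets named by predicted symbols (Gm, LOC or Rik) made up 413 of 13264 targets (3.11%) and 87 of the 4872 well-measured ones (1.79%). They were 22 of the 154 well-measured targets ranging at least 4-fold (14.3%) and 25 of the 207 at least 2-fold below both others in region 1 (12.1%). LOC118568632 had scaled levels of 0.85, 43.1 and 24.9, and Gm52436 0.45, 15.6 and 8.33. What these targets detect was not tested.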
